A study of Mus musculus with 4 samples.

Results

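The mouse genes Ppy, Pyy and Npy encode the pancreatic polypeptide family of hormones, and they were 3 of the 22481 gene symbols in the deposited expression table. Their rows were taken by symbol, each symbol had 1 row, and all 3 genes passed the filter on low counts. The family was selected on the KO against WT values of Ppy in these libraries, and its members were chosen by symbol, so the values of its members in that contrast are a description and carry no p-value. Gene expression was measured by RNA sequencing in pancreatic islets of 129sv mice aged 2 weeks. There were 2 libraries from mice whose genotype is given as Ngn3Mettls KO (KO) and 2 from wild-type controls (WT), each a pool of over 400 islets. The labels do not say which genes or exons were removed, which driver was used or whether the pools came from separate litters, so the spread between libraries may be partly technical.

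Pancreatic polypeptide (PP, from Ppy), peptide YY (from Pyy) and neuropeptide Y (from Npy) are short peptides that share a hairpin-like fold and an amidated end, and all act on the Y family of G protein-coupled receptors. PP marks a minor endocrine cell type of the islet and is released after meals. Peptide YY is made by gut endocrine cells and in several islet cell types during development, and neuropeptide Y is best known from neurons, including the sympathetic nerves that reach the islet, and has also been described in immature beta cells.

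The coding bases of the hormones are shown because they tell how far reads of the 3 genes can be separated. Each hormone of 36 residues was located in GENCODE M21 transcripts (GRCm38) as the stretch before the glycine-lysine-arginine signal for amidation, and its 108 coding bases are given 5′ to 3′ on the coding strand, with bases common to all 3 genes in capitals.
Ppy: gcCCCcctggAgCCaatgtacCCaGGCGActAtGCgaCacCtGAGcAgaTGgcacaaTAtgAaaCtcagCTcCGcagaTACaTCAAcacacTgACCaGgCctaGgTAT
Pyy: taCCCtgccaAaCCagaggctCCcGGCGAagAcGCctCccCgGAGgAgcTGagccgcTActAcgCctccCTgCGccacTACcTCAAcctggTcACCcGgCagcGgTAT
Npy: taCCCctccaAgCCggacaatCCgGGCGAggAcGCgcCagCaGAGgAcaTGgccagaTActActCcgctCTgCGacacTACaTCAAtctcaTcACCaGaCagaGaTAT
The stretches lie in chr11:102100280-102100624 (minus strand), chr11:102107053-102107268 (minus strand) and chr6:49823682-49827492 (plus strand) respectively, and each is split over 2 exons. All 3 genes shared 49 of the 108 bases and 15 of the 36 residues. Pyy and Npy were the closest pair, with 70.4% of bases and 66.7% of residues identical, against 53.7% and 44.4% for Ppy and Pyy. The longest identical run between any pair of the 3 transcripts was 9 to 10 bases, far below the read length of 150 bases.

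In every library Ins2 and Gcg ranked first and second by FPKM (fragments scaled to transcript length and library), and Ins1 ranked between 3 and 4. Estimated depth was 4057724 to 5232235 fragments per library. Acinar markers summed to 3456 and 6846 CPM in KO replicates 1 and 2 and to 7748 and 4618 CPM in WT, so the exocrine share varied within both groups (CPM scales counts to library size after TMM normalisation). The m6A RNA methyltransferase is built around the products of Mettl3 and Mettl14, and the genotype name does not say which of them was targeted. Mettl14 measured 14.1 and 15.6 CPM in KO against 21.4 and 21.8 in WT, and Mettl3 measured 18.6 and 17.2 CPM in KO against 29.3 and 17.1 in WT. Neither passed the edgeR test (adjusted p = 0.369 and 0.634), and counts over a whole gene cannot show the loss of single exons.

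Ppy was the family member whose level separated the genotypes. It lies on chromosome 11 from 102099930 to 102101319 on the minus strand (mm10) and encodes the precursor of PP. KO replicates 1 and 2 had 1074 and 801 CPM of Ppy, while WT replicates 1 and 2 had 375 and 348. Both KO libraries were above both WT libraries, and the lower KO value was 2.13 times the higher WT value, while the libraries of a group differed by 1.34-fold in KO and 1.08-fold in WT. The group means were 937 ± 193 CPM in KO and 362 ± 19.6 CPM in WT (SD, n = 2 each), a ratio of 2.59 and a log2 fold change of 1.37 ± 0.16 (SE, edgeR). These values rested on 5646 and 3191 fragments in KO and 1945 and 1504 in WT, where the exact Poisson interval (95%) of the smallest was 1429 to 1582, which covers counting error only. By FPKM Ppy stood at 2755 and 2054 in KO and 977 and 920 in WT, and it was the gene of rank 6 and 9 in the KO libraries and of rank 16 and 23 in the WT libraries, among at least 15134 symbols above 0. Islets are mixed tissue, so more PP cells and more Ppy RNA per cell cannot be told apart in these bulk values.

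Pyy, the gene for peptide YY, was expressed at a level close to Ppy without separating the genotypes. It lies on the same strand of chromosome 11 from 102106676 to 102107832, with 5356 bases between the 2 genes. KO replicates 1 and 2 had 984 and 624 CPM of Pyy, while WT replicates 1 and 2 had 755 and 587. The groups overlapped, and in both of them replicate 1 was the higher library, by 1.58-fold in KO and 1.28-fold in WT. The means were 804 ± 254 CPM in KO and 671 ± 118 CPM in WT (SD, n = 2 each), a log2 fold change of 0.26 ± 0.22 (SE), and the difference was smaller than the SD within KO. Its sign turned to -0.12 without KO replicate 1, and it was 0.55 without KO replicate 2.

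Npy was covered by few fragments. It lies on chromosome 6 from 49822710 to 49829507 on the plus strand, with 12 and 13 fragments in KO replicates 1 and 2 and 12 and 24 fragments in WT replicates 1 and 2. The Poisson intervals (95%) were 6.20 to 21.0 for the libraries with 12 fragments and 15.4 to 35.7 for the library with 24, so they overlapped across all 4 libraries. In CPM the values were 2.32 and 3.26 in KO and 2.36 and 5.50 in WT. WT replicate 2 alone was high and the other 3 libraries lay close together. The log2 fold change was -0.49 ± 0.60 (SE), and it was 0.24 without WT replicate 2. A difference in Npy between the genotypes was not detectable at this depth.

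**Figure D1:**
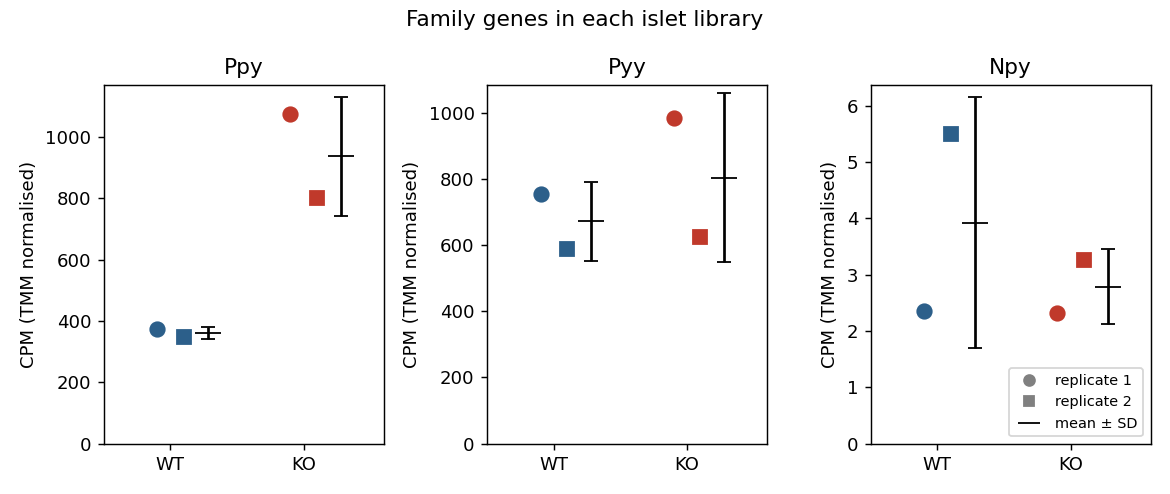
CPM (vertical axes, starting at 0) of Ppy, Pyy and Npy in the WT and KO libraries, where circles are replicates 1, squares are replicates 2 and bars are group means ± SD (n = 2). The Ppy values of KO, 801 and 1074, lie above those of WT, 348 and 375, while the groups overlap for Pyy and Npy.

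Of the 3 members, 1 (Ppy) was among the genes called by edgeR at an adjusted p under 0.05, beside 0.227% of all 12789 genes tested (29 genes, of which 17 were higher in KO, 0.133% of those tested). DESeq2 also called 1 member and limma on log2(FPKM + 1) called 0, with 0 genes called by limma in all and 1173 at an unadjusted p under 0.05. The groups did not overlap in CPM for 1 of the 3 members, beside 45.0% of all genes tested (22.7% higher and 22.3% lower in KO). Since this contrast was known when the family was chosen, nothing is read from these counts. The number of genes called over the whole table depended on the libraries, at 55 and 10 when KO replicate 1 or 2 was left out and 87 and 245 when WT replicate 1 or 2 was. Each of these fits has 1 library in a group, which is assumed to vary like the pair in the other group.

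The order of Ppy and Pyy by FPKM differed between the KO and WT libraries. Ppy was below Pyy in both WT libraries and above it in both KO libraries. The ratio of Ppy to Pyy FPKM was 1.25 and 1.41 in the KO libraries and 0.552 and 0.681 in the WT libraries. The mean ratio was 1.33 ± 0.119 in KO and 0.617 ± 0.0913 in WT (SD, n = 2 each). This ratio holds the Ppy values on which the family was selected, so it is a description. The Ppy log2 fold change exceeded that of Pyy by 1.11, and by 0.98 to 1.25 with single libraries left out. Npy was the lowest member in all 4 libraries, at 4.84 to 12.1 FPKM.

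Relative to the hormone genes of the major islet cells, Ppy stood higher in KO. These ratios hold the Ppy values on which the family was selected, so they are a description. Set against Gcg, the glucagon gene of alpha cells, Ppy FPKM came to 6.43% and 3.85% in KO and to 2.66% and 2.31% in WT. Against Sst, the somatostatin gene of delta cells, it came to 162% and 93.7% in KO and to 33.3% and 41.2% in WT. Against Ins2, an insulin gene of beta cells, it came to 5.58% and 3.56% in KO and to 1.03% and 1.34% in WT. The KO libraries were above the WT libraries for each of these denominators, and also for Ins1 (20.7% and 18.7% against 5.28% and 7.48%) and Iapp (20.7% and 14.2% against 9.98% and 9.43%). Against Ghrl, the ghrelin gene of epsilon cells, the groups overlapped, with ratios of 61.9 and 45.1 in KO and 48.1 and 35.6 in WT. The ratio of Pyy to Gcg overlapped as well, at 5.16% and 2.72% in KO and 4.81% and 3.39% in WT. Set against Sst, Pyy came to 130.1% and 66.3% in KO and 60.3% and 60.5% in WT, and set against Ins2 to 4.48% and 2.52% in KO and 1.86% and 1.96% in WT, so the KO libraries were above the WT libraries for these denominators, as they were for Ins1. The ratio of Pyy to Iapp overlapped, at 16.6% and 10.1% in KO and 18.1% and 13.8% in WT. The ratio of Pyy to Ghrl was lower in both KO libraries, at 49.7 and 31.9, than in both WT libraries, at 87.1 and 52.2. The mean CPM of Sst, Ins2 and Ins1 was lower in KO than in WT, and that of Gcg, Iapp and Ghrl was higher. The ratios of Ppy and Pyy therefore also reflect their denominators. In CPM, 45.0% of all genes tested did not overlap between the groups, so nothing is read from the ratios without overlap. Within the summed FPKM of the family and 7 other islet hormone genes, Ppy held 2.19% and 1.44% in KO and 0.588% and 0.680% in WT, and Pyy held 1.76% and 1.02% in KO and 1.07% and 0.998% in WT.

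**Figure D2:**
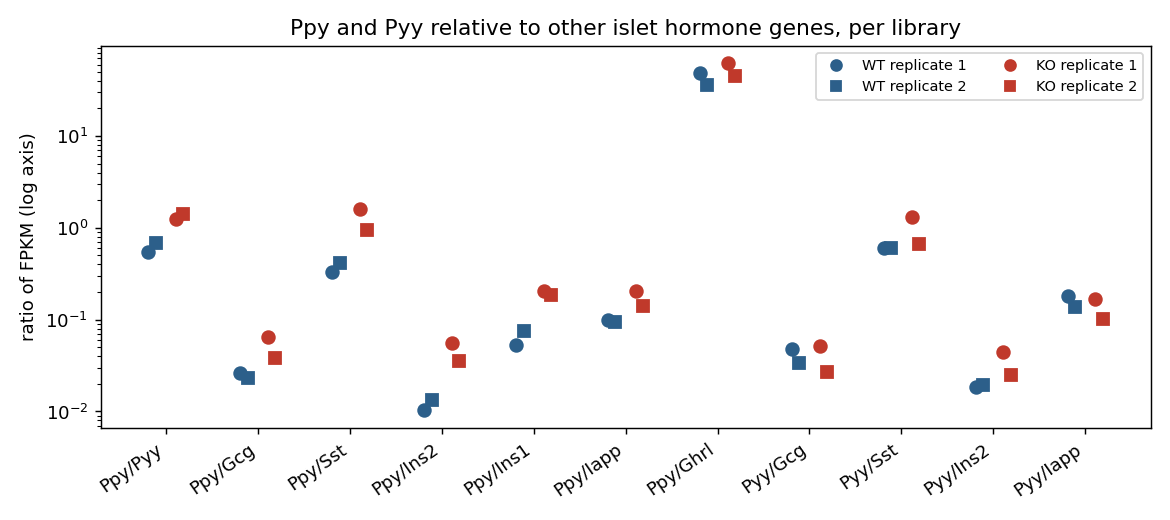
Ratio of FPKM (vertical log axis) of Ppy to 7 other hormone genes, and of Pyy to 4 of them, in each WT (blue) and KO (red) library, with circles for replicates 1 and squares for replicates 2. Ppy to Pyy goes from 0.552 and 0.681 in WT to 1.25 and 1.41 in KO, while Ppy to Ghrl and Pyy to Gcg overlap between the groups.

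The promoters of the neighbouring pair are shown because the values of Ppy and Pyy differed although the genes adjoin. The windows run from 250 bases before to 50 bases after the annotated start that coincides with that in the table (RefSeq, GRCm38.p6), at chr11:102101270-102101569 for Ppy and chr11:102107783-102108082 for Pyy, both on the minus strand and written 5′ to 3′ along the gene. Capitals mark TATAA, the core of the TATA box, and TGCTGA, the half-site of the Maf recognition element, on either strand.
Ppy: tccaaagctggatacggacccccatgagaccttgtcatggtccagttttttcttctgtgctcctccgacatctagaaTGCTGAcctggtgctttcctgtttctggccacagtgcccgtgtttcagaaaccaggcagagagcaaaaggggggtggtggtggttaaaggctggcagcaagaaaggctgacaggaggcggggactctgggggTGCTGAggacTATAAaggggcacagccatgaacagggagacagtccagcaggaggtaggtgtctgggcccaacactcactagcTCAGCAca
Pyy: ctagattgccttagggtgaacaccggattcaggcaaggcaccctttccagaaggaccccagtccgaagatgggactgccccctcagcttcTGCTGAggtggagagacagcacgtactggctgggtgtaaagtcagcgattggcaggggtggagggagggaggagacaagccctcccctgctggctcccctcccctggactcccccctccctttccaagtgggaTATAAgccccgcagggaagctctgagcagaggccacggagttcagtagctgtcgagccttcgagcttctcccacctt
TATAA began at position -31 in Ppy and at position -27 in Pyy, counted from the start site, was not found in the window of Npy, and was found on either strand in 24.9% of all 32851 promoter windows of the same length. TGCTGA occurred at 3 places in Ppy (-173, -41 and, on the reverse strand, 43) and at 1 place in Pyy (-160). It was not found in the window of Npy, and 19.5% of all windows held at least 1 match. The share of windows with 3 matches was not counted, so nothing is read from the numbers of places in Ppy and Pyy. CANNTG, the E-box, was found at 1 place in Pyy and in 72.3% of all windows, and TAAT, the homeodomain core, in none of the 3 family windows and in 58.0% of all windows. Both strands were searched, and none of the matches in the family windows overlapped. These matches are letters in a window and were not tested as binding sites.

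None of the other genes around Ppy and Pyy was called. The table held 8 further genes within 100 kb of the pair, of which 7 were tested (Mpp3, Cd300lg, Mpp2, Tmem101, Lsm12, G6pc3 and Hdac5). Their log2 fold changes ran from -0.54 ± 0.25 SE for Mpp3 to 0.47 ± 0.24 SE for Cd300lg, with a median of -0.14 beside 0.0046 over all genes tested, and the lowest edgeR adjusted p was 0.402. Mpp2, whose start site lies 12.8 kb from that of Ppy, measured 53.0 and 43.2 CPM in KO against 41.3 and 47.4 in WT. The table listed no gene within 100 kb of Npy.

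**Figure D3:**
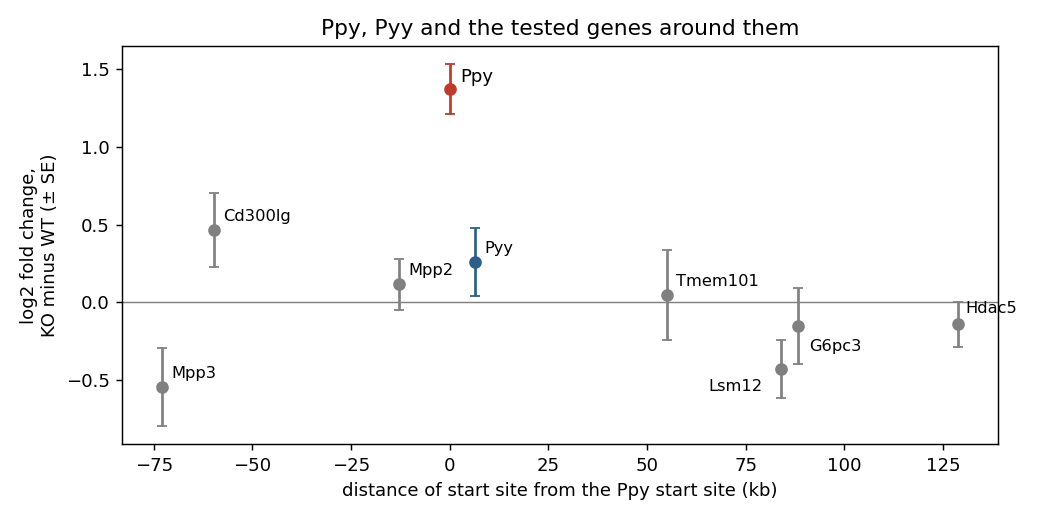
Log2 fold change, KO minus WT, with its SE (vertical axis) of Ppy, Pyy and 7 tested neighbours against the distance of each start site from that of Ppy in kb. Ppy stands at 1.37, Pyy at 0.26, and the neighbours lie between -0.54 and 0.47.

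Transcripts of the Y receptors, through which the family acts, were scarce. Npy1r was the only receptor that passed the filter, at 6.33 and 4.996 CPM in the KO libraries against 6.85 and 2.75 in WT, and it was not called (log2 fold change 0.24 ± 0.53 SE, edgeR adjusted p = 0.894, turning to -0.27 without WT replicate 2). Npy4r, whose product prefers PP, had 0.211 and 1.52 CPM in KO against 0.857 and 0 in WT. Npy2r was seen in WT replicate 2 alone, at 0.211 CPM, and Npy5r and Npy6r had 0 counts in all 4 libraries.

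None of the genes of peptide maturation, a list of processing enzymes and their partners, was called. All 9 tested genes of peptide maturation had a positive log2 fold change, with a median of 0.17. Pam, Scg5, Furin and Ctsl were higher in both KO libraries than in both WT libraries, and the others overlapped. Over all genes tested, 22.7% were higher in KO without overlap. Pam measured 1349 and 1499 CPM in KO against 1084 and 1111 in WT. Pcsk2, the convertase that cuts prohormones at pairs of basic residues, measured 5092 and 5892 CPM in KO against 4817 and 5685 in WT (log2 fold change 0.06 ± 0.13 SE). Cpe, the carboxypeptidase that trims the cut ends, measured 2066 and 2376 CPM in KO against 1948 and 2386 in WT (0.04 ± 0.14 SE). Both genes overlapped between the groups, and both turned negative without KO replicate 2 or without WT replicate 1. Of the proteases that trim or degrade the peptides, 3 of 7 were tested, all 3 with a log2 fold change above 0 (median 0.12), and none was called. Xpnpep2 and Mep1b were at 0 in all 4 libraries. Dpp4, which shortens peptide YY and neuropeptide Y, measured 160 and 138 CPM in KO against 155 and 119 in WT, and Ctss had a log2 fold change of 0.45 ± 0.29 SE.

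Other hormone genes are given as the setting of the family. Of 7 islet hormone genes none was called by edgeR, and the log2 fold change was above 0 in 3 and below 0 in 4. Ins2 was at -0.58 ± 0.16 SE (adjusted p = 0.238) and Gcg at 0.35 ± 0.12 SE (adjusted p = 0.314). Iapp, the amylin gene of beta cells, had the lowest edgeR adjusted p of the list, 0.122, at 10597 and 11705 CPM in KO against 7817 and 7683 in WT. Ghrl measured 18.8 and 19.3 CPM in KO against 8.57 and 10.6 in WT (edgeR adjusted p = 0.212). The groups did not overlap for Iapp, Ghrl and Gcg, all higher in KO, and for Ins2, which was lower. Of all genes tested, 45.0% did not overlap either. Ins2 was called by DESeq2 (adjusted p = 0.0101) and by edgeR without WT replicate 2 (adjusted p = 0.000560, with the spread taken from the KO libraries alone), and its edgeR adjusted p reached 0.492 without KO replicate 2. Of 23 gut hormone and neuropeptide genes only Vip and Tac1 had enough counts for a test, and 7 were at 0 throughout. Vip, a neuropeptide gene, measured 24.7 and 81.2 CPM in the KO libraries against 28.3 and 108 in WT, and Tac1 1.48 and 6.08 CPM in KO against 0.642 and 9.52 in WT. Both were higher in replicate 2 of each genotype. Npy was also higher in replicate 2 of WT, while its 12 and 13 fragments in KO do not tell those libraries apart.

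The genes reported alongside Ppy in PP cells of mouse or human islets were not called. Of 13 such genes 11 were tested, and the log2 fold change was above 0 in 6 and below 0 in 5 of them, with a median of 0.07. Their summed level was 1052 and 1125 CPM in KO against 976 and 1049 in WT. Abcc9, Slitrk6 and Thsd7a were higher in both KO libraries than in both WT libraries, and Sertm1 and Spock1 were lower. Over all genes tested, 45.0% did not overlap between the groups in this way. Sertm1 measured 1.06 and 0.434 CPM in KO against 3.64 and 4.86 in WT, on 2 to 21 fragments per library. Etv1, a transcription factor gene, measured 258 and 283 CPM in KO against 208 and 271 in WT (0.18 ± 0.15 SE). Meis2, also a transcription factor gene, measured 316 and 331 CPM in KO against 320 and 337 in WT (-0.02 ± 0.11 SE). Both overlapped between the groups, and other islet cells express these genes as well.

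Among 17 transcription factors of islet cell fates, 16 were tested and 2 were called, both lower in KO and both of beta cells. Mafa, an activator of insulin transcription, measured 14.98 and 4.996 CPM in KO against 110 and 120 in WT (-3.52 ± 0.36 SE on the log2 scale, edgeR adjusted p = 0.0341). Leaving out KO replicate 1 gave -4.53, and leaving out KO replicate 2 gave -2.94. Nkx6-1, a factor that holds beta cells in their fate, measured 173 and 187 CPM in KO against 347 and 327 in WT (-0.90 ± 0.11 SE, edgeR adjusted p = 0.0411), and it passed the threshold neither when KO replicate 1 was left out (edgeR adjusted p = 0.0770) nor when KO replicate 2 was (adjusted p = 0.0940). Limma on log2(FPKM + 1) called neither gene (adjusted p = 0.420 for both). The log2 fold change was above 0 in 10 and below 0 in 6 of the 16 factors, with a median of 0.04. Secretory granule genes of all endocrine cells had 13 tested members, 9 of them above 0, with a median of 0.06 and none called. Among them, Chga was at -0.27 ± 0.12 SE and Scg2 at 0.25 ± 0.12 SE. Over the 16 lists, 104 of 144 distinct genes were tested, 18 had an unadjusted p under 0.05 in edgeR (beside 1606 of all 12789 genes), and 2 were called, 0 higher and 2 lower, beside 0.0938% of all genes called lower. The number of list genes called was 1 without KO replicate 1, 1 without KO replicate 2 and 13 without WT replicate 2, and DESeq2 called 5.

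**Figure D4:**
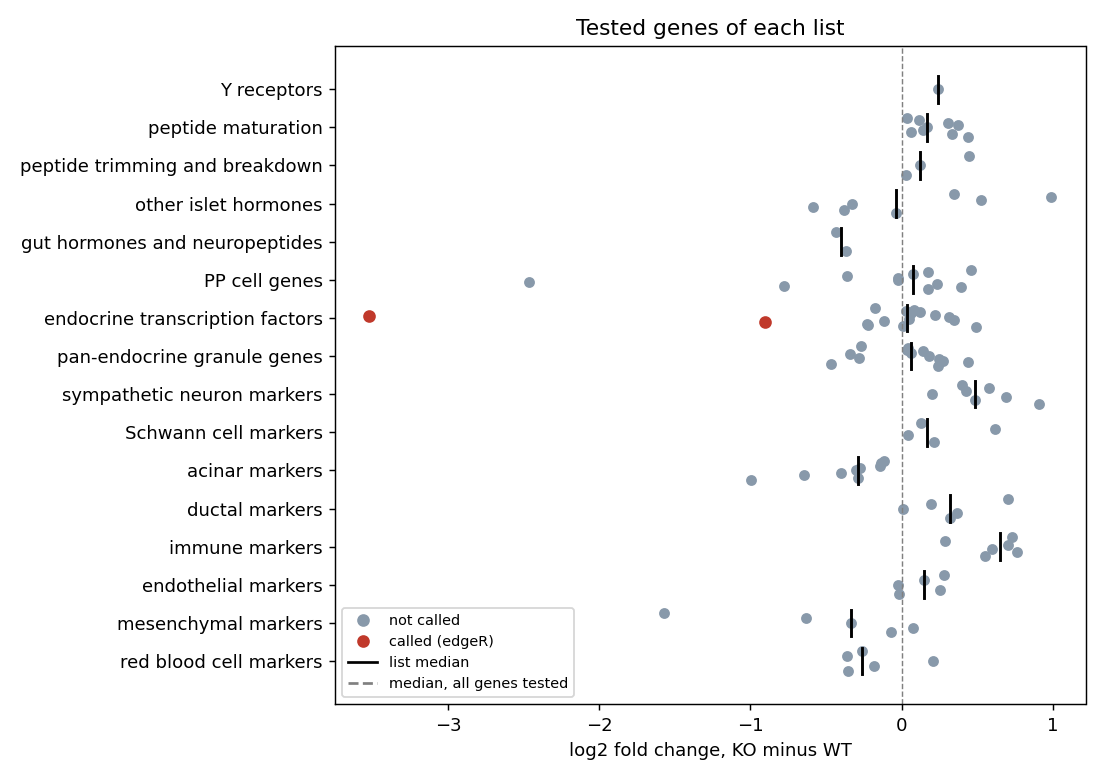
Log2 fold change, KO minus WT (horizontal axis), of each tested gene in the 16 lists, with red points for genes called by edgeR, a black bar for the list median and a dashed line for the median of all genes tested. Red points appear among the endocrine transcription factors alone, Mafa at -3.52 and Nkx6-1 at -0.90.

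Markers of neurons, a further source of Npy, were not called. All 7 tested sympathetic neuron markers had a positive log2 fold change, with a median of 0.48, and Dbh, a defining enzyme gene of noradrenergic neurons, was at 0 in all 4 libraries. The summed level of the list was 113 and 137 CPM in KO against 82.2 and 77.4 in WT. The largest single part of that sum in every library was Th, so the sum does not stand for neurons alone. Th, which makes the precursor of dopamine and is also expressed in islet endocrine cells, measured 61.0 and 55.6 CPM in KO against 30.4 and 31.7 in WT (0.91 ± 0.15 SE, edgeR adjusted p = 0.0820). It was called by DESeq2 (adjusted p = 0.0389) and by edgeR without WT replicate 2 (adjusted p = 0.0226, again with the spread from the KO libraries alone). Stmn2 was at 0.48 ± 0.30 SE, and at 0.046 without KO replicate 2.

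Markers of other cell types also differed between the libraries. Immune markers were positive in 6 of 6 tested genes (median 0.65), and summed to 160 and 101 CPM in KO against 104 and 61.1 in WT, with Cd74 at 58.7 and 38.9 CPM in KO against 39.2 and 20.7 in WT. C1qa, a complement gene of macrophages, measured 28.9 and 34.97 CPM in KO against 19.3 and 19.2 in WT. The groups were thus apart for C1qa and overlapped for Cd74 and the other tested immune markers. Over all genes tested, 22.7% were higher in KO without overlap. Ductal markers were positive in 5 of 5 (median 0.32), and summed to 285 and 297 CPM in KO against 216 and 269 in WT, with Krt7 and Cldn4 the highest by FPKM. Acinar markers, led by Cela2a and Ctrb1, were negative in 9 of 9 (median -0.29). Mesenchymal markers, led by Col1a1 and Col3a1, were negative in 4 of 5 (median -0.33) and highest in WT replicate 1, at 1404 CPM in sum against 569 to 793 CPM in the other 3 libraries. Endothelial markers (Pecam1 and Plvap highest) were positive in 3 of 5 (median 0.15), with sums of 683 and 583 CPM in KO against 662 and 537 in WT. Red blood cell markers (Hba-a1 and Hbb-bs highest) were negative in 4 of 5 (median -0.26), with sums of 234 and 118 CPM in KO against 135 and 272 in WT. None of the genes in these 6 lists was called, and the part of these cells in the values of Ppy was not tested. With libraries scaled to the granule genes of endocrine cells in place of TMM, the Ppy log2 fold change was 1.33 ± 0.20 SE.

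The genes with the profile most like each member are a description of 4 libraries. Likeness was the Euclidean distance between centred log2(CPM + 1) values, over 9834 genes with a mean CPM of at least 10. Nearest to Ppy were Mrpl43 (distance 0.236), H2-Eb1, an antigen presentation gene (0.269), Tmem255a (0.300), Lrch4 (0.338) and Nebl (0.362), beside a median distance of 1.42. Mrpl43, a gene for a mitochondrial ribosomal protein, measured 32.3 and 29.1 CPM in KO against 10.5 and 10.6 in WT. Nearest to Pyy were Dpy19l1 (0.0951), Serpinh1 (0.103), Pcsk7 (0.104), Nr2f2 (0.109) and Susd1 (0.116), beside a median distance of 0.673. Like Pyy, these genes were higher in replicate 1 of each genotype. Nearest to Npy were Gm5884 (0.0522), Marcksl1 (0.0927), BC068157 (0.122), Csrnp2 (0.156) and Sox4 (0.176), beside a median distance of 0.835. Each was highest in WT replicate 2. The distance of a member's own profile from a flat one was 1.39 for Ppy, 0.579 for Pyy and 0.785 for Npy. Distances were not scaled to this size, so they are not compared between members.

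The sizes given for the family held under other ways of processing, except where single libraries were left out. The Ppy log2 fold change lay between 1.33 and 1.37 over 8 alternatives that kept all libraries. Without single libraries it lay between 1.14 (without KO replicate 1) and 1.57 (without KO replicate 2). The corresponding ranges were -0.12 to 0.55 for Pyy and -0.98 to 0.24 for Npy.

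**Figure D5:**
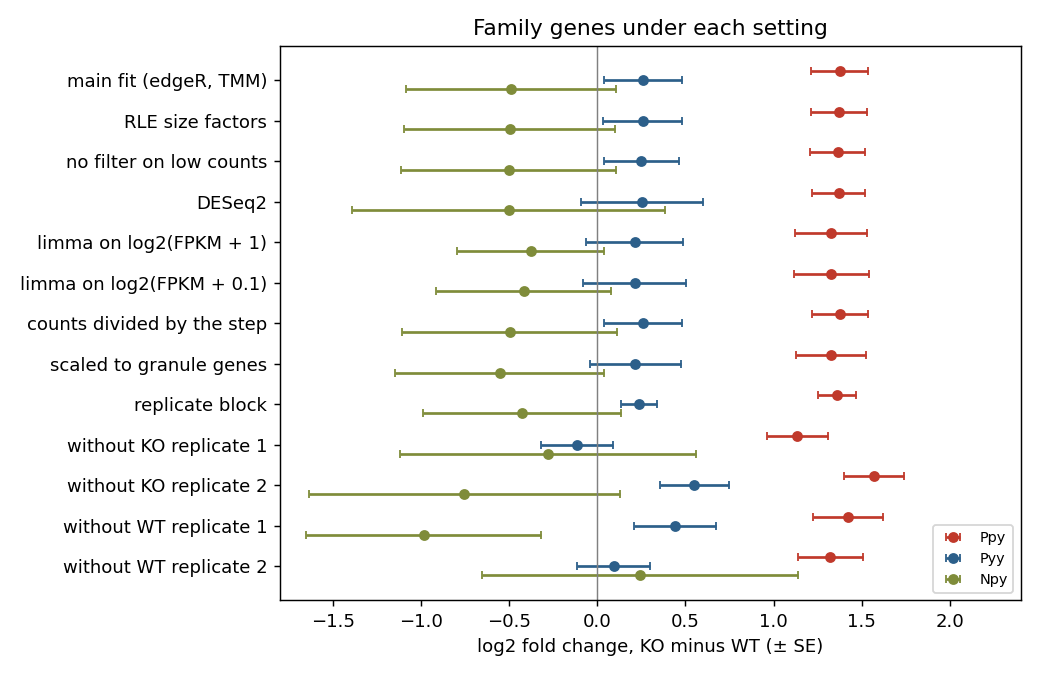
Log2 fold change, KO minus WT, with its SE (horizontal axis) of Ppy, Pyy and Npy in the reported fit and under 12 alternatives. Ppy stays between 1.14 and 1.57, while Pyy turns negative without KO replicate 1 and Npy turns positive without WT replicate 2.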

How the data were processed

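Islet total RNA of 4 libraries was depleted of ribosomal RNA and sequenced as paired reads of 150 bases from strand-specific libraries, per the labels' protocols. The submitters' processing notes name cutadapt 1.9.3, HISAT2 2.0.4, Cufflinks and Cuffdiff with the mm10 build. The gene annotation was not given in the sources used here. FPKM and counts came in 1 table: the authors deposited FPKM values and estimated counts per gene, per the file headers. The deposited estimated counts were not raw: 94.2% to 94.9% of values below 50 steps fell within 0.1 of a step of a whole multiple, with steps of 0.901 to 1.15, so each library had been scaled, and depth was the total divided by that step. The table's starts count from 0, and 1 was added to them. 1 empty line of the table was not used.

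Rows of the 79 repeated symbols were summed, counts rounded, filtered with filterByExpr, scaled by TMM and fitted on genotype alone with the two-sided quasi-likelihood F test of edgeR 4.0.16 (R 4.3.3), with Benjamini-Hochberg adjustment over 12789 genes. A gene was called at an adjusted p under 0.05. The script was tested on simulated counts. The common biological coefficient of variation was 16.0%. With 2 libraries per group, the p-values set the difference between genotypes against the spread between these pools, which edgeR moderates across genes. Alternatives were DESeq2 (1.42.0), limma (3.58.1) on log2(FPKM + 1) or log2(FPKM + 0.1) with a mean FPKM of at least 1, other scalings, no filter, a replicate block and leaving out each library.

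The members, gene lists and tests were chosen with earlier results of these data known. Named genes are the members, the Y receptors, tested genes within 100 kb of a member, the called genes of each list or else its 2 genes of highest mean FPKM, and the 5 genes most like each member. Other hormone genes set beside the members, Mettl3, Mettl14, Dbh, Xpnpep2 and Mep1b are named outside this rule. So are Abcc9, Slitrk6, Thsd7a, Sertm1, Spock1, Pam, Scg5, Furin and Ctsl. The values of 1 marker list are not reported here.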

Additional observations from a re-analysis of the deposited data

How the results depend on the processing

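The Ppy log2 fold change moved by more than the spread between libraries in 1 of 12 alternatives, to 1.14 without KO replicate 1, Pyy to -0.12 without KO replicate 1, and Npy to 0.24 without WT replicate 2. With single libraries left out they ranged from 1.14 to 1.57, from -0.12 to 0.55 and from -0.98 to 0.24. The number of genes called was 29, and it was 150 with DESeq2, 19 with granule gene scaling, 0 with limma at either pseudocount (1173 and 1097 genes at an unadjusted p under 0.05), and 10 to 245 without single libraries. List genes called went from 2 to 5 with DESeq2, 0 with limma at either pseudocount, and 1 to 13 without single libraries. With the replicate block 214 genes and 6 list genes were called. The deviations of same-numbered libraries correlated at r = 0.185 across genes, but the labels give the numbers no meaning, so pairing is not established. With the block the log2 fold changes of Ppy, Pyy and Npy were 1.36, 0.24 and -0.43. Of the list genes and neighbours with a printed fold change, 8 changed sign under some alternative, none of them called. Their ranges without single libraries were -0.27 to 1.03 for Npy1r, -0.061 to 0.19 for Pcsk2, -0.11 to 0.19 for Cpe (-0.028 with granule gene scaling), -0.056 to 0.32 for Dpp4, -1.47 to 0.90 for Vip, -1.77 to 2.51 for Tac1, -0.015 to 0.38 for Etv1 and -0.068 to 0.019 for Meis2. The cause of these shifts was not tested. Depth limits Npy, with 12 to 24 fragments per library, and the receptors.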
